A study of Mus musculus with 91 samples.

Results

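Mature miRNAs were compared between *Dnmt*-null and control epiblast (Epi) of mouse embryos at embryonic day 6.5 (E6.5), in 8 of the 91 small RNA libraries of the series. The libraries were chosen by their labels alone, which gave 4 of each genotype. The study used base editing in zygotes to inactivate DNA methyltransferases, and small RNA of the resulting embryos, of semi-cloned (SC) embryos and of haploid embryonic stem cells was sequenced with CAS-seq, a protocol for very small inputs. The series addresses how DNA methylation bears on miRNA expression around gastrulation. *Dnmt*-null embryos carried premature stop codons in *Dnmt1*, *Dnmt3a* and *Dnmt3b*, made by injecting base editor mRNA with an sgRNA for each gene into the zygote, so that Epi and extraembryonic ectoderm (Exe) of an embryo were both edited. Each zygote is edited on its own, and the table of mature miRNAs holds none of the edited genes, so the genotypes could not be checked with these values. The females were B6D2F1, a cross of C57BL/6J with DBA2, and the males were homozygous for *Oct4-EGFP* on a C57BL/6J background, so that embryos of both groups carried this reporter transgene, and control embryos did not carry the edits. Epi was separated from Exe with a needle. Whether a library held 1 embryo or several, and what the controls had been injected with, is not given in the sources used here, and the p-values therefore measure the spread between these libraries.

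A miRNA is cut from a hairpin precursor and guides Argonaute proteins to mRNAs, mainly through its seed, bases 2 to 8 of the mature strand, and the targeted mRNAs are repressed. DNMT3A and DNMT3B place methyl groups on unmethylated DNA and DNMT1 copies them after replication. Some miRNA clusters are marks of a cell state: *miR-290-295* and *miR-302-367* are the abundant clusters of pluripotent cells, the former of the naive and early embryo and the latter of the primed epiblast, whereas an X-linked group that includes *miR-741*, *miR-871* and *miR-880* is known from testis and germ cells.

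The mature sequences of the members that carry the largest changes are given first, 5′ to 3′, as RefSeq lists them for GRCm38.p6, with the seed in capitals. Strands of the pluripotency clusters share the seed AAGUGCU although the clusters lie on different chromosomes: *miR-302b-3p* and *miR-302d-3p* at chr3:127545275-127545297 (+) and chr3:127545665-127545687 (+), and *miR-294-3p* and *miR-295-3p* at chr7:3220691-3220712 (+) and chr7:3220815-3220837 (+).
*miR-302b-3p*: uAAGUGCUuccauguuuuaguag
*miR-302d-3p*: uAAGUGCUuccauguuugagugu
*miR-294-3p*: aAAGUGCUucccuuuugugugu
*miR-295-3p*: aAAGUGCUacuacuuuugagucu
A second seed, AUUGCAC, joins *miR-367-3p*, the last miRNA of its cluster, to *miR-363-3p* and *miR-92a-3p* of the *miR-17-92* kind.
*miR-367-3p*: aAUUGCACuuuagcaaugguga
*miR-363-3p*: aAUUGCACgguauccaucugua
*miR-92a-3p*: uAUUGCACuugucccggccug
The strands shown from the germline X cluster hold 6 different seeds.
*miR-470-5p*: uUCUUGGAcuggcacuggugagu
*miR-741-3p*: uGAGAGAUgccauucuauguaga
*miR-871-3p*: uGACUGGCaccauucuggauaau
*miR-743b-3p*: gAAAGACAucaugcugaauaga
*miR-880-3p*: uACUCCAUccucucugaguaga
*miR-465a-3p*: gAUCAGGGccuuucuaaguaga
They lie at chrX:66813995-66814017 (-), chrX:66796809-66796831 (-), chrX:66810438-66810460 (-), chrX:66777266-66777287 (-), chrX:66800540-66800561 (-) and chrX:66839063-66839084 (-). *miR-465b-3p* and *miR-465c-3p* have the same mature sequence as *miR-465a-3p*, and these 3 entries held identical counts in each of the 16 E6.5 Epi libraries.

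The *Dnmt*-null libraries were the shallower group. Total counts were 45242, 112818, 66655 and 123169 in *Dnmt*-null replicates 1 to 4 and 286288, 281158, 447629 and 458837 in the controls, without overlap (exact two-sided permutation test p = 0.0286, the smallest that 4 against 4 allow). Expected at the depth of the smallest library, 449 to 490.1 miRNAs were detected in replicates 2 to 4 and 478 to 507 in controls, against 247 in *Dnmt*-null replicate 1 (p = 0.114, exact permutation test). Of 201 miRNAs that the control shares would put at 10 or more counts in that library, 26 were at 0, against at most 2 in any other. Its mean correlation with its own group was 0.778, against 0.857 to 0.866 in the other *Dnmt*-null libraries. Replicate 1 therefore stands apart, and results are also given without it. A count of 3 corresponded to 66.3 CPM there and to 6.54 CPM in the deepest control. CAS-seq libraries are amplified by PCR and no molecular identifiers are described, so intervals and floors cover counting error only. In bulk tissue, fewer cells of a type and less RNA per cell cannot be told apart.

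Of the 1504 mature miRNAs of the table, 409 passed the filter on low counts, 329 of them outside the imprinted *Dlk1-Dio3* region. Outside that region, 43 were higher and 45 were lower in *Dnmt*-null Epi at a log2 fold change beyond 0.5 in either direction and p under 0.05, not adjusted, in edgeR's quasi-likelihood test, which is 26.7% of those tested (13.1% higher and 13.7% lower). With a Benjamini-Hochberg adjusted p under 0.05, 23 were higher (6.99%) and 19 lower (5.78%), 12.8% in all. Over all 409 the corresponding shares were 25.9% without adjustment and 13% with it (8.31% higher and 4.65% lower), and the median log2 fold change was -0.14. Outside the region the median was -0.36, with 199 of 329 estimates below 0. Some entries share reads: the 43 higher miRNAs had 39 different rows of counts and the 45 lower ones 42, since copies with one mature sequence, and pairs annotated on opposite strands of one site such as *miR-290a-5p* and *miR-290b-3p*, held identical counts. The libraries of the groups did not overlap for 25 of the 43 and for 39 of the 45, where 9.05% of all tested miRNAs had every *Dnmt*-null library above every control and 11.5% had every one below. Without *Dnmt*-null replicate 1, 47 rose and 37 fell outside the region. Levels and changes of all tested miRNAs are plotted together with the clusters described next.

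**Figure D1:**
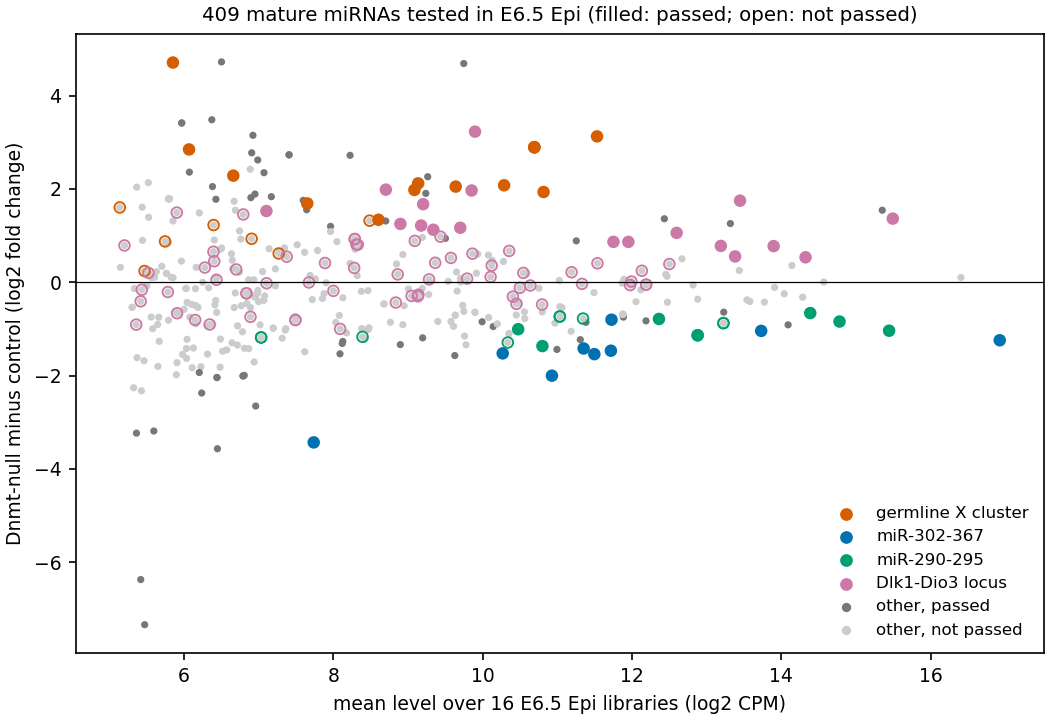
Log2 fold change of *Dnmt*-null over control (vertical axis) against the mean log2 CPM over the 16 E6.5 Epi libraries (horizontal axis) for 409 mature miRNAs, with filled points for those that passed and colours for 4 clusters. The germline X cluster lies above 0 in 21 of 21 tested members and *miR-302-367* below 0 in 9 of 9.

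The largest group to rise outside *Dlk1-Dio3* was the germline X cluster, a run of testis-expressed miRNA genes. Its 21 tested members lie in chrX:66776757-66839125 of GRCm38, all on the minus strand. Of these, 14 rose and none fell, with a median log2 fold change of 1.98, where 14.9% of all tested miRNAs were higher and none of the 7 members that did not pass was below 0. With adjusted p-values, 11 passed. The list holds 38 entries in the table, and the 17 that were not tested stayed under the count filter. By contrast, 35 tested miRNAs elsewhere on the X chromosome included 5 higher and 5 lower, with a median of -0.58. Without *Dnmt*-null replicate 1, 17 of 23 tested members rose, with a median of 2.03. The count filter drew on all groups of the fit, so members low in controls could be tested because edited groups were high. The share of tested members above 0 may therefore depend in part on the filter. With only the 8 libraries of this comparison, 10 of 17 tested members rose, with a median of 2.08. With no filter on low counts, 14 of 31 rose, with a median of 1.57. None fell in either. In the libraries numbered 1 and 2 the median difference in log2 CPM was 1.47 (12 of 21 positive), and in those numbered 3 and 4 it was 1.99 (21 of 21 positive).

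*miR-470-5p* was the most abundant of the cluster in *Dnmt*-null Epi and changed with the smallest adjusted p of all 409 miRNAs. It stood at 734, 779, 548 and 238 normalized CPM in the control libraries and at 7089, 5099, 3238 and 4668 in the *Dnmt*-null libraries. The lowest *Dnmt*-null library was above the highest control, and the log2 fold change was 3.13 (adjusted p = 1.31e-05, SE 0.37), or 8.74-fold higher. For *miR-741-3p*, control values were 757, 779, 743 and 314 CPM and *Dnmt*-null values 1962, 2824, 2327 and 2784, again without overlap, for a log2 fold change of 1.93 (adjusted p = 0.000513, SE 0.34). Control replicate 4 was the lowest of its group for both, as it was for the share of the whole cluster given further on. *miR-871-3p* read 559, 509.7, 353 and 159.6 CPM in controls and 1076, 2073, 1332 and 2169 CPM in *Dnmt*-null Epi, a log2 fold change of 2.08 (adjusted p = 0.00105, SE 0.40). Its partner strand *miR-871-5p*, cut from the other arm of the same hairpin, changed by 2.29 (adjusted p = 0.0401, SE 0.72). The single sequence shared by *miR-465a-3p*, *miR-465b-3p* and *miR-465c-3p* went from 484, 409, 329 and 194 CPM to 6034, 1804, 1023 and 1727 CPM, where replicate 1 was far above the other 3. Its log2 fold change was 2.89 (adjusted p = 0.000469, SE 0.50), and 2.12 without that library.

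Further members were lower in count. *miR-743b-3p* and *miR-880-3p* rose with log2 fold changes of 2.05 (adjusted p = 0.0017, SE 0.41) and 1.98 (adjusted p = 0.00484, SE 0.46), and their groups did not overlap. *miR-465a-5p* also rose, with a log2 fold change of 2.12 (adjusted p = 0.0216, SE 0.60), although replicate 1 held 2 counts and lay below every control in CPM. Without replicate 4, the highest, it was 1.5. *miR-878-3p*, *miR-878-5p* and *miR-743a-5p* passed with the unadjusted p only, with log2 fold changes of 1.34, 1.69 and 2.85 and adjusted p of 0.103, 0.147 and 0.0818. *miR-878-3p* lost its call without *Dnmt*-null replicate 4 or control replicate 3 or 4 (unadjusted p = 0.0556 to 0.108 in edgeR), and *miR-878-5p* without *Dnmt*-null replicate 2, 3 or 4 or control replicate 1 or 4 (unadjusted p = 0.0579 to 0.0991 in edgeR). *miR-743a-5p* lost it without *Dnmt*-null replicate 1 (unadjusted p = 0.228 in edgeR) and with replicate number as a block (unadjusted p = 0.0929 in edgeR). *miR-881-5p* had 0, 2, 3 and 3 counts in controls and 25, 14, 1 and 1 in *Dnmt*-null libraries. With pooled counts of 41 and 8, its ratio was 19.7 (95% exact interval of the ratio of counts 9.12 to 48.7), and its adjusted p was 0.00981 in edgeR. Replicate 1 held 25 of the 41, and the fitted log2 fold change, 4.71 over all libraries, was 3.08 without it. The entire cluster took 0.542, 0.505, 0.372 and 0.169% of counts in control replicates 1 to 4 and 3.39, 2.17, 1.46 and 2.11% in *Dnmt*-null replicates 1 to 4. The group means were 0.397% ± 0.169 and 2.28% ± 0.806 (SD, n = 4).

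**Figure D2:**
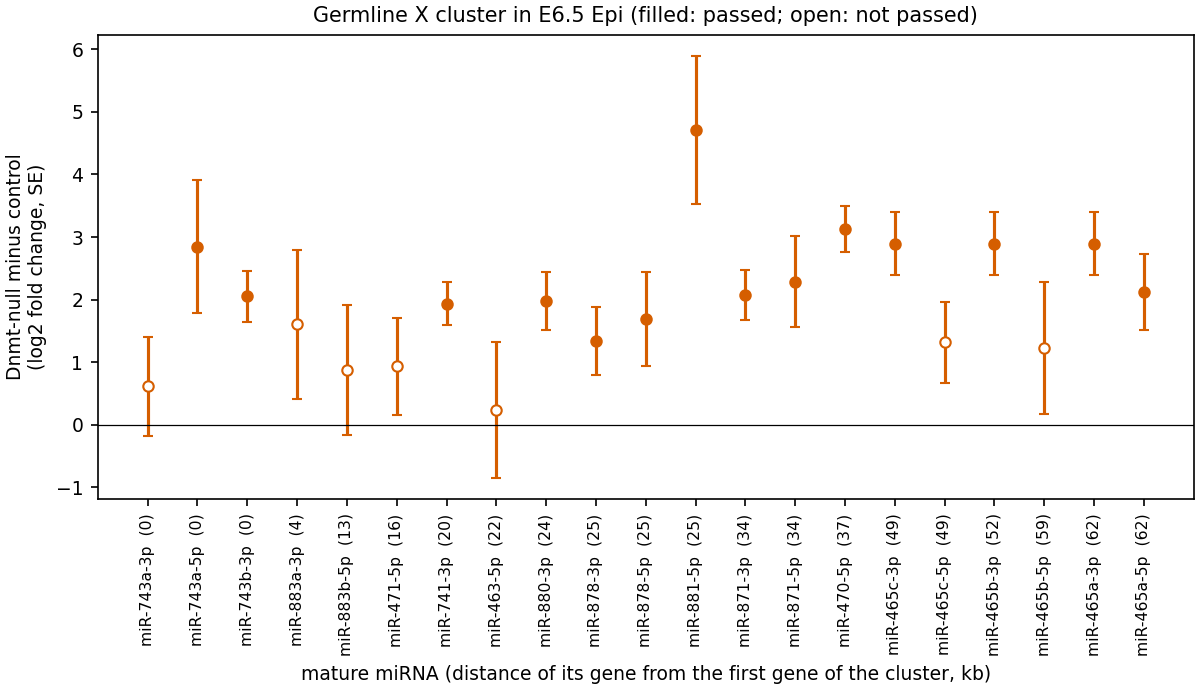
Log2 fold change of *Dnmt*-null over control with its SE (vertical axis) for the 21 tested members of the germline X cluster in genome order, with the distance in kb from the first gene in brackets. Filled points passed, open points did not, and every point lies above 0.

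The *miR-302-367* cluster, on chromosome 3 and typical of the primed epiblast, was lower. All 9 tested members fell (8 with adjusted p under 0.05), where 11% of all tested miRNAs were lower, and their median log2 fold change was -1.47. *miR-302b-3p*, the most abundant miRNA of control Epi, was at 141606, 123953, 190384 and 210873 normalized CPM in controls and 43987, 61839, 83493 and 92215 in *Dnmt*-null Epi. The groups did not overlap, and the log2 fold change was -1.24 (adjusted p = 0.000469, SE 0.21), or 2.37-fold lower. Control replicates 3 and 4 were above 1 and 2, and in the *Dnmt*-null group the same numbers were above theirs. *miR-302d-3p* stood at 3240.3, 3338, 6634 and 6648 CPM in controls and 1287, 1315, 2551 and 2019 CPM in *Dnmt*-null libraries, and changed by -1.47 (adjusted p = 0.00407, SE 0.33). The largest fall was that of *miR-367-3p*, the downstream hairpin, with 55, 30, 248 and 166 counts in controls and 0, 3, 4 and 4 in *Dnmt*-null libraries and a log2 fold change of -3.43 (adjusted p = 0.0023, SE 0.72).

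Both arms of the *miR-302* hairpins took part. *miR-302a-3p* and *miR-302c-3p* changed by -1.54 (adjusted p = 0.0132, SE 0.40) and -1.53 (adjusted p = 0.00653, SE 0.36). The 5p strands *miR-302c-5p*, *miR-302b-5p*, *miR-302a-5p* and *miR-302d-5p* had log2 fold changes of -2.0, -1.42, -1.04 and -0.80, with adjusted p of 0.0167, 0.00484, 0.0499 and 0.0814 in edgeR. *miR-302c-5p* had 1 count in *Dnmt*-null replicate 1. The groups overlapped for *miR-302a-5p* and *miR-302d-5p*, and *miR-302d-5p* lost its call without control replicate 3 (unadjusted p = 0.0779 in edgeR). Of all reads, the cluster took 17.9, 14.9, 22.6 and 23.3% in control replicates 1 to 4 and 5.68, 7.98, 11.3 and 11.8% in the *Dnmt*-null replicates, or 19.7% ± 3.99 against 9.19% ± 2.89 (SD, n = 4). Without *Dnmt*-null replicate 1, all 9 remained past the unadjusted threshold, with a median of -1.18. In a fit of only the 8 libraries of this comparison, 8 of 9 fell, 4 of them with adjusted p under 0.05.

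**Figure D3:**
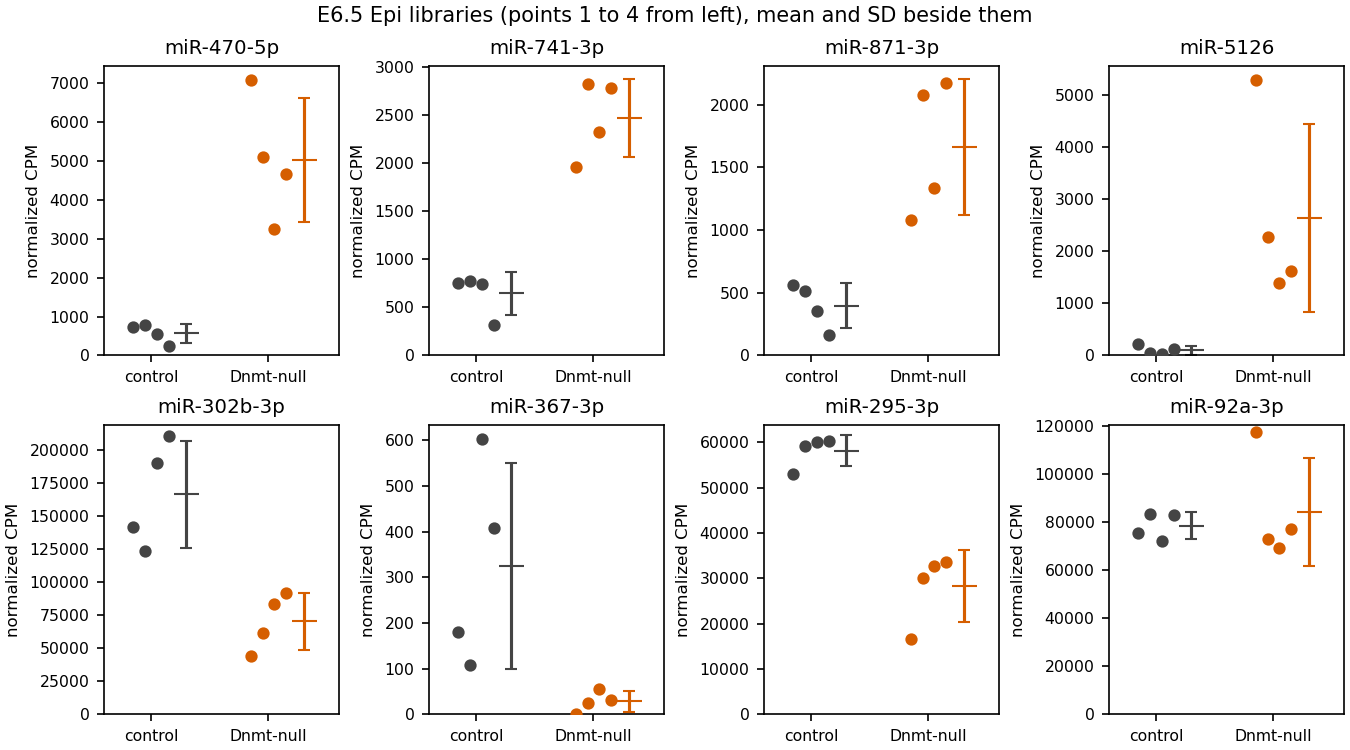
Normalized CPM (vertical axis, from 0) of 8 miRNAs in the control (grey) and *Dnmt*-null (orange) E6.5 Epi libraries, points 1 to 4 from left to right, with mean and SD beside them. The groups do not overlap for *miR-470-5p*, *miR-741-3p*, *miR-871-3p*, *miR-5126*, *miR-302b-3p*, *miR-367-3p* and *miR-295-3p*, and overlap for *miR-92a-3p*.

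The *miR-290-295* cluster on chromosome 7, abundant in embryonic stem cells, was lower as well. Of 17 tested entries, 8 fell and none rose, where 11% of all tested were lower. With adjusted p, 6 passed (all tested 4.65%), all 17 estimates were below 0, and the median log2 fold change was -1.01. *miR-295-3p* was at 53029, 59139, 60147 and 60271 CPM in controls and 16688, 30106, 32705 and 33656 CPM in *Dnmt*-null Epi, and changed by -1.04 (adjusted p = 0.000513, SE 0.18). The control values were within a narrow range, and *Dnmt*-null replicate 1 was the lowest. *miR-293-3p* went from 30923, 36594, 34004 and 37091 CPM to 12532, 17455, 24910.4 and 22395 CPM, a log2 fold change of -0.84 (adjusted p = 0.00379, SE 0.19). *miR-291a-5p* and *miR-295-5p* fell less, with log2 fold changes of -0.66 (adjusted p = 0.0159, SE 0.18) and -0.79 (adjusted p = 0.0252, SE 0.23). *miR-290a-5p* fell with a log2 fold change of -1.14 (adjusted p = 0.0043, SE 0.26), and the entry on the opposite strand, *miR-290b-3p*, repeats its counts. *miR-294-3p* and *miR-294-5p* passed with the unadjusted p only (log2 fold changes -1.01 and -1.37, adjusted p = 0.107 and 0.0814), and *miR-294-3p* lost its call without control replicate 3 or 4 (unadjusted p = 0.056 to 0.0747 in edgeR). *miR-292a-5p*, whose counts *miR-292b-3p* repeats, did not pass, with a log2 fold change of -0.88 and adjusted p = 0.198. With replicate number as a block its unadjusted p was 0.0265 in edgeR, and 11 of the 17 passed. It also passed without *Dnmt*-null replicate 3 or 4 or control replicate 1 (unadjusted p = 0.0192 to 0.0442). The cluster took 18.2% ± 0.933 of counts in controls and 10.5% ± 3.34 in *Dnmt*-null Epi (SD, n = 4), from 6.0, 10.4, 13.8 and 12% in replicates 1 to 4. Without replicate 1, 9 of 17 fell and the median was -0.72.

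Counted by seed rather than by locus, reads with AAGUGCU, printed above for *miR-302b-3p* and *miR-295-3p*, made up 21.1, 18.7, 23.9 and 24.9% of counts in control replicates 1 to 4 and 6.53, 9.94, 12.9 and 13.3% in the *Dnmt*-null replicates. The mean share was 22.2% ± 2.81 in controls and 10.7% ± 3.14 in *Dnmt*-null Epi (SD, n = 4). Of the 5 strands with this seed in the sequence table, 4 fell, where 11% of all tested miRNAs were lower. The other was *miR-291a-3p*, with a log2 fold change of -1.17 (adjusted p = 0.335, SE 0.76) and 0 counts in *Dnmt*-null replicate 1. *miR-302a-3p* is left out of these sums because no RefSeq sequence was matched to it. For AUUGCAC the shares were 10.6, 10.8, 10.2 and 10.6% in controls and 15, 10.1, 9.96 and 10.5% in *Dnmt*-null Epi. This seed is carried mainly by *miR-92a-3p*, which was at 75583, 83500.5, 72052 and 82964 CPM in controls and 117678, 73007, 69390.3 and 76964 CPM in *Dnmt*-null Epi. Its log2 fold change was 0.10 (adjusted p = 0.761, SE 0.18). *miR-363-3p*, encoded on the X chromosome in the *miR-106a-363* cluster, did fall, with a log2 fold change of -0.91 (adjusted p = 0.0389, SE 0.29), from 13484, 14763, 27022 and 24149.6 CPM in controls to 6540.0, 9119.5, 12743 and 13737 CPM in *Dnmt*-null libraries. *miR-92b-3p*, named here after its value was seen, was higher, with 3336, 3256, 2401 and 2895 CPM in controls, 14072, 7046, 4556 and 4913 CPM in *Dnmt*-null Epi and a log2 fold change of 1.36 (adjusted p = 0.00981, SE 0.34). Members of this seed thus moved in both directions.

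**Figure D4:**
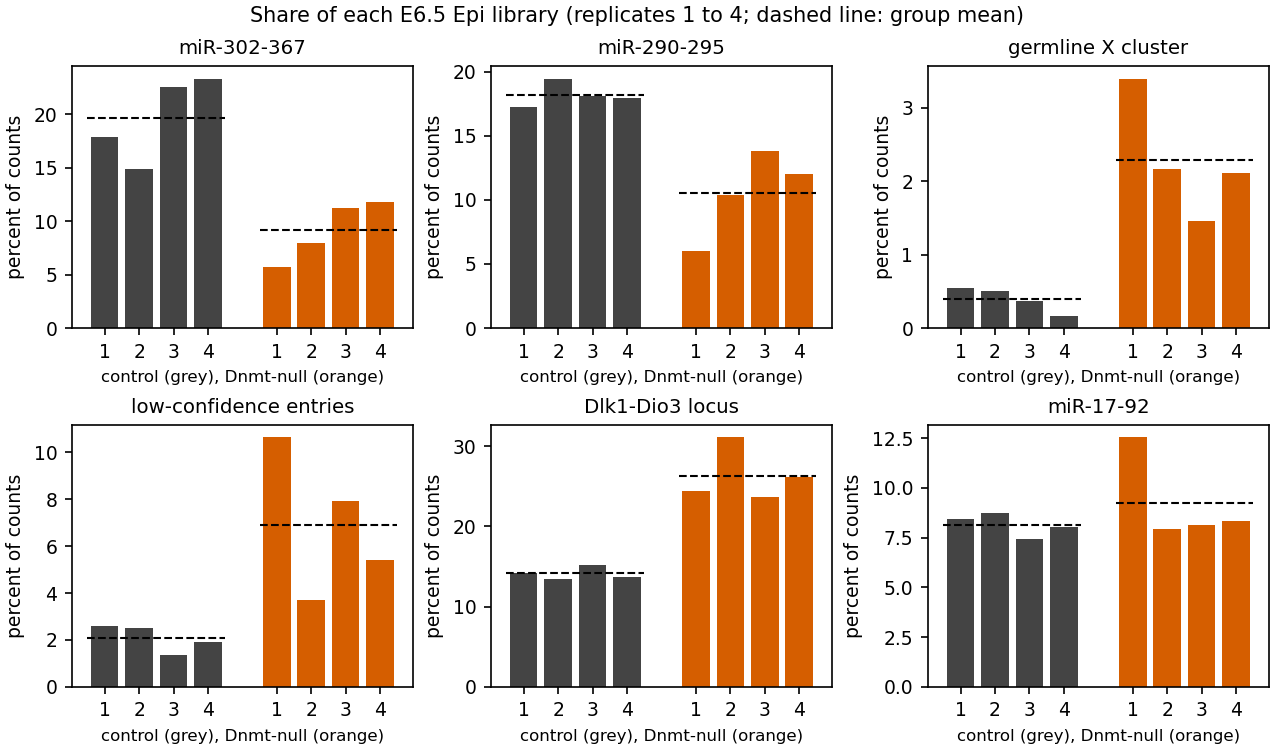
Percent of all counts of each library (vertical axes, from 0) taken by 6 clusters or lists in control (grey) and *Dnmt*-null (orange) replicates 1 to 4, with the group mean as a dashed line. Shares of *miR-302-367* and *miR-290-295* are lower in every *Dnmt*-null library, those of the germline X cluster, the low-confidence entries and *Dlk1-Dio3* are higher in every one, and *miR-17-92* overlaps.

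Among the largest rises outside the X cluster were miRBase entries of low confidence, which overlap other RNA classes and were held in a list of their own. Of 5 tested, 4 rose and none fell, where 14.9% of all tested miRNAs were higher. All 4 had an adjusted p under 0.05 (all tested 8.31%), and the median log2 fold change of the 5 was 2.42. The other entry, *miR-8114*, had a log2 fold change of 2.42 (adjusted p = 0.222, SE 1.24). Without *Dnmt*-null replicate 1, 4 of 5 rose, 3 with adjusted p, and the remaining 1 had a log2 fold change of -0.47. *miR-5126*, on chromosome 1, had 214, 46.7, 26.8 and 120.3 CPM in controls and 5295, 2276, 1388 and 1624 CPM in *Dnmt*-null Epi. The groups did not overlap and the log2 fold change was 4.69 (adjusted p = 3.72e-05, SE 0.63), or 4.10 without *Dnmt*-null replicate 1 and 5.33 without control replicate 1. *miR-1195* rose evenly, from 128, 226, 151 and 155 CPM to 527, 969, 1051 and 615 CPM, a log2 fold change of 2.26 with adjusted p = 0.000998, SE 0.43. *miR-6240* had 5, 0, 5 and 9 counts in controls and 49, 6, 24 and 5 counts in *Dnmt*-null libraries with a log2 fold change of 4.73 (adjusted p = 0.0136, SE 1.24), which was 3.36 without *Dnmt*-null replicate 1, and replicates 2 and 4 were close to the controls. *miR-5099* took 2.54, 2.46, 1.33 and 1.89% of counts in controls and 9.81, 3.34, 7.61 and 5.17% in *Dnmt*-null replicates 1 to 4, and changed by 1.54 (adjusted p = 0.000513, SE 0.27). Its share was highest in replicate 1, the smallest library and next highest in replicate 3, the next smallest. Whether depth or RNA input moves these entries was not tested.

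For the next rises, the *Dnmt*-null libraries differed widely among themselves. *miR-203-3p*, an epithelial miRNA, had 15, 23, 27 and 20 counts in controls and 38, 76, 8 and 14 in *Dnmt*-null libraries, a log2 fold change of 2.73 (adjusted p = 0.0279, SE 0.81), and *miR-203b-5p* on the opposite strand repeats its counts. *miR-375-3p*, known from endoderm and pancreatic islets, had 13, 4, 7 and 10 counts in controls and 2, 53, 8 and 34 in *Dnmt*-null libraries, with replicates 2 and 4 highest, and changed by 3.15 (adjusted p = 0.0167, SE 0.86) on the log2 scale, or by 2.55 without replicate 2. *miR-125b-5p*, a *lin-4* relative, had 171, 79, 48.7 and 135 CPM in controls and 2257, 211, 294 and 173 CPM in *Dnmt*-null Epi, a log2 fold change of 2.72 (adjusted p = 0.0197, SE 0.76), and without replicate 1 its log2 fold change was 1.04 (unadjusted p = 0.0814 in edgeR). *miR-99a-5p* had 13, 17, 9 and 11 counts in controls and 0, 63, 16 and 21 in *Dnmt*-null libraries, a log2 fold change of 2.62 (adjusted p = 0.0453, SE 0.85), and without replicate 2 its unadjusted p was 0.0526 in edgeR. *miR-423-5p* was at 39683, 10325, 7219 and 7972 CPM in *Dnmt*-null Epi against 6773, 8371, 5631 and 6436 CPM in controls, and its log2 fold change of 1.26 (adjusted p = 0.0453, SE 0.41) became 0.35 without replicate 1 (unadjusted p = 0.207 in edgeR).

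*let-7b-5p*, a member of the family that marks differentiation, had 2, 6, 7 and 11 counts in controls and 0, 83, 8 and 0 counts in *Dnmt*-null libraries. Replicate 2 held nearly all of them, replicates 1 and 4 held none, and the groups overlapped. The log2 fold change was 3.48 (adjusted p = 0.0547, SE 1.17) with an unadjusted p of 0.00735, and it was 1.0 (unadjusted p = 0.41 in edgeR) without replicate 2 and 2.40 (unadjusted p = 0.0657 in edgeR) with replicate number as a block. *let-7c-5p* rose with the unadjusted p only, from 92.1, 68.2, 129 and 123 CPM to 696, 261, 294 and 173 CPM for a log2 fold change of 1.76 with adjusted p = 0.0735, SE 0.63, and no other of the 8 tested *let-7* and *miR-98* entries passed. *miR-296-3p*, from the imprinted *Gnas* domain on chromosome 2, was at 536, 617, 964 and 948 CPM in controls and 633, 1652, 1192 and 1167 CPM in *Dnmt*-null Epi. It did not pass, with a log2 fold change of 0.61 (adjusted p = 0.329, SE 0.38). Without *Dnmt*-null replicate 1 it passed, with 0.86 (unadjusted p = 0.0124 in edgeR). Among the other imprinted miRNAs, *miR-298-3p* of the same domain was lower with the unadjusted p (log2 fold change -2.38, adjusted p = 0.112) but not without *Dnmt*-null replicate 3 or 4 or control replicate 4 (unadjusted p = 0.0557 to 0.0594 in edgeR), and its log2 fold change was -3.97 without *Dnmt*-null replicate 2. *miR-298-5p* of its hairpin was not called (log2 fold change -0.38, adjusted p = 0.366), except without *Dnmt*-null replicate 3 (unadjusted p = 0.049 in edgeR). *miR-483-3p*, from an intron of *Igf2*, had 37, 77, 23 and 19 counts in controls and 0, 1, 0 and 3 in *Dnmt*-null libraries, a ratio of control to *Dnmt*-null of 10.1 (95% exact interval 3.88 to 37.7), its adjusted p was 0.116 in edgeR, and its call was lost without *Dnmt*-null replicate 1, 2 or 3 (unadjusted p = 0.0537 to 0.0584 in edgeR).

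Outside the pluripotency clusters, the falls were spread over many loci. *miR-421-3p*, encoded on the X chromosome beside *miR-374b*, was at 3303, 2204, 2542 and 2858 CPM in controls and 253, 1315, 1276 and 1136 CPM in *Dnmt*-null libraries, a log2 fold change of -1.44 (adjusted p = 0.0167, SE 0.39). *miR-1983* went from 2734, 3098, 3625 and 3509 CPM to 1245, 1601, 1149.5 and 1514 CPM, with close values inside each group and a log2 fold change of -1.23 (adjusted p = 0.00253, SE 0.26). *miR-200c-3p*, which maintains epithelial character, was at 5799.6, 6303, 6532 and 7556 CPM in controls and 2848, 3464, 4388 and 4037 CPM in *Dnmt*-null Epi (log2 fold change -0.83, adjusted p = 0.0287). Its family member *miR-429-3p* passed with the unadjusted p only (log2 fold change -1.54, adjusted p = 0.147) and did not without *Dnmt*-null replicate 1 or 3 or control replicate 1, 3 or 4 (unadjusted p = 0.0526 to 0.0762 in edgeR). None of the other 6 tested members passed. *miR-669p-3p*, of the *Sfmbt2* intronic cluster that is abundant in placenta, had 16, 47, 31 and 16 counts in controls and 0 in all *Dnmt*-null libraries. It was at least 2.18-fold lower, against a floor of 3 counts in each *Dnmt*-null library. *miR-297b-3p* and *miR-297c-3p*, which share their counts, were the other 2 of 34 tested *Sfmbt2* entries to fall, with an adjusted p of 0.135 in edgeR, and they did not pass without *Dnmt*-null replicate 1, 3 or 4 or control replicate 1 or 2 (unadjusted p = 0.0524 to 0.134 in edgeR). In the *Sfmbt2* list 3 of 34 thus fell, where 11% of all tested miRNAs were lower. Its median log2 fold change was -0.71, or -0.31 without control replicate 2 and -1.12 without control replicate 4. The list took 6.71, 10.1, 2.59 and 2.12% of counts in control replicates 1 to 4. In *Dnmt*-null replicates 1 to 4 it took 4.97, 4.61, 2.43 and 1.95%, so the groups overlapped.

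In other families that regulate the cell cycle or differentiation, some members were lower, to be read against the 11% of all tested miRNAs that were. *miR-16-5p* and *miR-15b-5p*, repressors of cyclins, had log2 fold changes of -0.86 and -0.85 (adjusted p = 0.0716 and 0.178), and those 2 of 4 tested in their list fell with the unadjusted p. *miR-15b-5p* did not pass without *Dnmt*-null replicate 1 or 2 or control replicate 2, 3 or 4 (unadjusted p = 0.0567 to 0.0824 in edgeR). *miR-24-3p* and *miR-23b-3p* fell with the unadjusted p, 2 of 7 in their list, with log2 fold changes of -2.01 and -1.27, and *miR-3074-5p* on the opposite strand repeats the counts of *miR-24-3p*. *miR-23b-3p* lost its call without *Dnmt*-null replicate 2 or 4 or control replicate 3 or 4 (unadjusted p = 0.0514 to 0.0788 in edgeR), and with replicate number as a block its unadjusted p was 0.051 in edgeR. *miR-148a-5p* fell with the unadjusted p (log2 fold change -2.0, adjusted p = 0.0863 in edgeR, or -2.89 without *Dnmt*-null replicate 4), 1 of 5 tested in the list of *miR-29* and *miR-148*, families known to repress *Dnmt* mRNAs. *miR-30e-5p* and *miR-30c-1-3p* were the 2 of 10 in the *miR-30* list to fall with the unadjusted p (adjusted p = 0.169 and 0.0939), and *miR-30e-5p* lost its call without *Dnmt*-null replicate 1 or 2 or control replicate 2, 3 or 4 (unadjusted p = 0.0512 to 0.0904 in edgeR). *miR-301b-5p*, 1 of 5 tested in the list of *miR-130* and *miR-301*, had 2 counts over the *Dnmt*-null libraries and 84 over the controls, a ratio of control to *Dnmt*-null of 10.9 (95% exact interval 2.93 to 91.7), and its call was lost without *Dnmt*-null replicate 1, 2 or 4 or control replicate 1, 2, 3 or 4 (unadjusted p = 0.0503 to 0.114 in edgeR). 

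Among those that rose, in *miR-181*, *miR-322* with *miR-503*, and *miR-106a-363*, *miR-181d-5p*, *miR-351-3p* and *miR-92a-2-5p* passed as higher with log2 fold changes of 0.94, 1.78 and 0.89, but each lost its call both without *Dnmt*-null replicate 1 (unadjusted p = 0.164, 0.528 and 0.329) and with the block (0.0546, 0.177 and 0.0797) in edgeR. Leaving out single controls also ended these calls, control replicate 1, 2 or 3 for *miR-181d-5p* and any control for *miR-351-3p* and *miR-92a-2-5p* (unadjusted p = 0.0507 to 0.0995). In the *miR-17-92* cluster none of 10 passed, nor did any of 5 in the list of *miR-183*, *miR-96* and *miR-182*, where *miR-182-5p* was at 20985, 19591, 23277 and 26089.6 CPM in controls and 17215, 23886, 24392 and 24706 CPM in *Dnmt*-null Epi. The neural list (3 tested), *miR-34* (1 tested) and the *Hox* list (1 tested) also had none, with log2 fold changes of -0.50, -0.75 and 1.74 for *miR-124-3p*, *miR-34b-3p* and *miR-10b-5p*. The value of *miR-10b-5p* rests on *Dnmt*-null replicate 3, without which it was -0.04. It passed without *Dnmt*-null replicate 1 or 4 (unadjusted p = 0.0433 and 0.0489 in edgeR), and *miR-34b-3p*, with 0, 12, 0 and 0 counts in *Dnmt*-null libraries, passed without replicate 2 (unadjusted p = 0.00707).

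Further miRNAs above 1% of counts did not pass. These were *miR-191-5p*, *miR-26a-5p*, *miR-27b-3p*, *miR-30c-5p*, *miR-183-5p*, *miR-125a-5p*, *miR-99b-5p* and *miR-298-5p*, with log2 fold changes of -0.32, -0.25, -0.41, -0.43, -0.11, 0.25, 0.36 and -0.38. *miR-30c-5p* passed without *Dnmt*-null replicate 4 (unadjusted p = 0.0419 in edgeR). *miR-125a-5p* varied within both groups, with 12319.7, 5714, 3499 and 12922 CPM in controls and 15443, 6540.4, 3687 and 15361 CPM in *Dnmt*-null Epi. Replicate 3 was the lowest in each group.

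In the *Dlk1-Dio3* region, which holds a large maternally expressed miRNA cluster, 18 of 80 tested miRNAs were higher and none lower, or 22.5% against 14.9% of all tested, with a median log2 fold change of 0.29, and 11 passed with adjusted p (13.8% against 8.31%). Leaving out single libraries gave 6 to 15 with adjusted p, and 6 without control replicate 1, 2 or 4. The median of the region ranged from 0 with no filter on low counts to 0.43 with scaling by total counts. The largest changes were those of *miR-485-5p*, *miR-540-3p* and *miR-323-5p*. *miR-485-5p* went from 207, 266, 224 and 336 CPM to 6899, 1180.0, 981 and 741 CPM, a log2 fold change of 3.23 (adjusted p = 0.000819, SE 0.60), and of 1.94 without *Dnmt*-null replicate 1. *miR-540-3p* had 243, 190.2, 239 and 206 CPM in controls and 759, 919, 1009 and 796 CPM in *Dnmt*-null libraries, evenly over the replicates (log2 fold change 1.99, adjusted p = 0.00306). *miR-323-5p* changed by 1.97 (adjusted p = 0.0277, SE 0.58) but did not pass without replicate 1 (unadjusted p = 0.062 in edgeR). The region took 14.2, 13.5, 15.2 and 13.7% of counts in controls and 24.4, 31.1, 23.6 and 26.1% in *Dnmt*-null replicates 1 to 4.

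The tissue label was compared with marker miRNAs, as summed CPM. The epiblast markers *miR-302a-3p*, *miR-302b-3p*, *miR-302d-3p* and *miR-367-3p* summed to 129048 to 198436 CPM in control Epi, 47832 to 99270.1 in *Dnmt*-null Epi and 17351 to 30714 in E6.5 control Exe. *Dnmt*-null Epi was thus below control Epi and above Exe in every library. These markers are among the miRNAs reported above as lower, and *miR-302b-3p* made up most of the sum. A sum below control Epi therefore repeats that result and is no separate check of the tissue. The 15 Exe markers, the miRNAs most enriched in Exe over Epi of E7.5 controls, summed to 2587 to 10649 CPM in control Epi, 4111 to 6852 in *Dnmt*-null Epi and 18386 to 30314 in control Exe. Of 14 tested Exe markers, *miR-672-5p* and *miR-142a-5p* were higher with the unadjusted p, where 14.9% of all tested miRNAs were. None passed as lower (all tested 11%), but 11 of the 14 estimates were below 0, to a log2 fold change of -1.82 for *miR-669b-5p*. *miR-142a-5p*, chosen as an Exe marker at E7.5, averaged 56.6 CPM in E6.5 control Exe and 216 CPM in E6.5 control Epi, the opposite of its label. Endoderm markers summed to 745 to 1768 CPM in controls and 1110.2 to 2952 in *Dnmt*-null Epi, with *miR-375-3p*, given above, the 1 of 3 tested to pass. Blood and endothelial markers summed to 377 to 510.0 CPM and 0 to 1583 CPM. Here *miR-142a-5p* had 201, 223, 217 and 260.3 CPM in controls and 0, 893, 1178 and 1269.6 CPM in *Dnmt*-null libraries (log2 fold change 1.91, adjusted p = 0.0644), while *miR-223-3p* was at 0 in all 8 libraries. The other tested marker, *miR-126a-3p*, had 60, 42, 82 and 74 counts in controls and 0, 1, 10 and 26 in *Dnmt*-null libraries, with a log2 fold change of -0.98 that did not pass. In the longer blood and endothelium list 4 of 6 tested entries were below 0, all from 1 site. There *miR-126b-5p* repeats the counts of *miR-126a-3p*, and *miR-126b-3p* those of *miR-126a-5p*. Mesenchymal and decidual markers summed to 82.8 to 123 CPM and 106 to 995 CPM. *miR-199a-3p*, which shares its counts with *miR-199b-3p*, had 34, 6, 11 and 4 counts in *Dnmt*-null libraries and 0, 12, 10 and 7 in controls (log2 fold change 3.41, adjusted p = 0.0939), and it did not pass without replicate 1 (unadjusted p = 0.185) or with the block (unadjusted p = 0.111 in edgeR). *miR-214-3p* was at 0 in all 8 libraries. The part of other cell types in the results above was not tested.

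*Dnmt1*-KO and *Dnmt3a/3b*-DKO Epi of E6.5, with 4 libraries each, were compared with the same 4 controls, so their values are given side by side only. In the germline X cluster, 13 of 21 members were higher in *Dnmt1*-KO, 15 in *Dnmt3a/3b*-DKO and 14 in *Dnmt*-null Epi, with medians of 1.43, 1.91 and 1.98, where 6.11%, 9.78% and 14.9% of all tested miRNAs were higher and 5.87%, 5.13% and 11% lower. *miR-470-5p* had log2 fold changes of 1.80, 2.88 and 3.13 in that order. For *miR-302-367* the medians were -0.28, -0.62 and -1.47, with 0, 2 and 9 of 9 members lower. For *miR-290-295* they were -0.31, -0.65 and -1.01, with 1, 3 and 8 of 17 lower. *miR-5126* had log2 fold changes of 1.06, 2.36 and 4.69, and *let-7b-5p* of 0.46, 1.88 and 3.48. Differences between the genotypes were not tested here.

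The miRNAs called in E6.5 Epi were then looked up in other *Dnmt*-null comparisons, which share no library with it. These had 4 libraries against 4 in Exe of either stage and 3 against 3 in E7.5 Epi and in SC embryos, which are made by injecting haploid stem cells into oocytes. Whether E6.5 Exe libraries came from the same embryos as E6.5 Epi libraries is not given in the sources, so that comparison may not be independent. Of the 43 higher miRNAs outside *Dlk1-Dio3*, 25 were also higher in E7.5 Epi (58.1% of those tested there, or 27.8% of the higher miRNAs of E7.5 Epi), where 16.3% of all tested outside the region were higher, and 6 were lower. In E7.5 Exe, 18 of 43 were higher (background 8.37%), in E6.5 Exe 6 of 40 (background 2.62%) and in SC embryos 15 of 39 (background 11.7%), which are 42.9%, 75% and 34.1% of the higher miRNAs there. Members of the germline X cluster made up 14 of the 25, 13 of the 18, 6 of the 6 and 12 of the 15. Leaving the cluster out, 11 of 29 were higher and 6 lower in E7.5 Epi (background 12.7% higher), 5 of 29 were higher and 3 lower in E7.5 Exe (4.86%), 0 of 26 were higher and 1 lower in E6.5 Exe (0.352%), and 3 of 25 were higher and 3 lower in SC embryos (7.06%). Of the 45 lower miRNAs, 17 of 45 were lower in E7.5 Epi (background 23.9%), 11 of 44 in E7.5 Exe (background 9.36%), 10 of 41 in E6.5 Exe (background 9.84%) and 9 of 44 in SC embryos (background 10.9%). These are 12.9%, 23.4%, 33.3% and 22% of the lower miRNAs in those comparisons.

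The clusters differed in how far their direction held. Germline X members were higher in E6.5 Exe for 7 of 21 tested (all miRNAs 5.05%), in E7.5 Epi for 23 of 27 (19.9%), in E7.5 Exe for 19 of 29 (11.6%) and in SC embryos for 19 of 23 (9.98%), and none was lower in any of them. *miR-302-367* members were lower in 0 of 8, 7 of 10, 6 of 9 and 1 of 9 in the same order, where 7.98%, 20.6%, 7.87% and 8.89% of all tested were lower, with medians of -0.41, -0.98, -0.87 and -0.72. For *miR-290-295* the medians were -0.45, 0.84, 0.11 and 0.26. In E6.5 Exe, 6 of 17 members of that cluster were lower and 0 higher (all tested 7.98% lower). In E7.5 Epi, 11 of 18 members were higher (all tested 19.9%) and none lower, the opposite of E6.5 Epi. In E7.5 Exe 3 of 18 were higher (all tested 11.6%) and 0 lower, and in SC embryos 0 of 18 passed. The difference between stages was tested in edgeR as an interaction over the Epi libraries, and for *miR-295-3p* the log2 fold change was 1.94 (SE 0.27) higher at E7.5 than at E6.5 (adjusted p = 2.79e-05). *miR-293-3p* differed by 1.43 (adjusted p = 0.000819) and *miR-291a-5p* by 1.73 (adjusted p = 0.000135). In all, 58 of 572 miRNAs had an adjusted p under 0.05 for the stage difference. For Epi against Exe at E6.5, edgeR gave 0 of 458 with an adjusted p under 0.05 and 60 with an unadjusted p under 0.05, and DESeq2 gave 18 and 76 of 457.

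**Figure D5:**
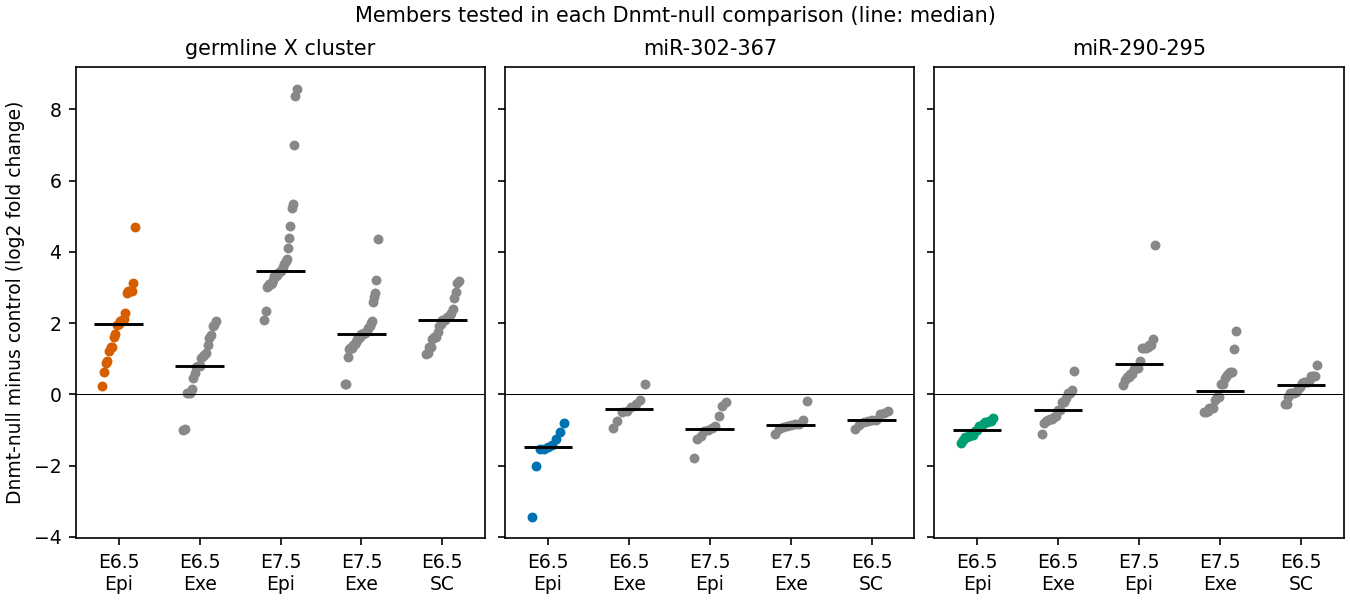
Log2 fold change of *Dnmt*-null over control or wild type (vertical axis) of each tested member of 3 clusters in E6.5 Epi (coloured) and also in 4 comparisons with other libraries (grey), with the median as a line. The germline X medians lie above 0 in all 5, those of *miR-302-367* below 0 in all 5, and that of *miR-290-295* moves from -1.01 at E6.5 to 0.84 at E7.5 in Epi.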

How the data were processed

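Small RNA libraries were made from 100 pg of RNA with CAS-seq. The authors trimmed reads with fastp 0.20.1, aligned them to GRCm38 with bowtie 1.2.1.1 and assigned them to miRBase 21 entries, and the deposited values are counts of reads per mature miRNA without normalization. Counts were compared with edgeR 4.0.16 (R 4.3.3), using TMM, filterByExpr with a count minimum of 10 and the quasi-likelihood test over all 16 E6.5 Epi libraries. The thresholds were those of the study, p under 0.05 before adjustment and a log2 fold change beyond 0.5 either way. Adjusted p-values are Benjamini-Hochberg over all tested miRNAs, and SE was derived from the log2 fold change and F. Normalized CPM is scaled by TMM. Genes were placed with RefSeq (GRCm38.p6) and GENCODE vM21, and 1275 of 1504 entries had a mature sequence. Control and *Dnmt*-null libraries with the same number in the labels deviated together (correlations 0.137 to 0.302), and replicate number was also used as a block. Libraries numbered differently within 1 and 2 or within 3 and 4 also did (0.0361 to 0.260), so these values do not show that the number itself marks the pairs. In simulated data, 81.2% of 186 changed miRNAs passed, as did 6.64% of unchanged ones among 397 tested (2.37% with adjusted p). Each changed miRNA was moved by 2 on the log2 scale, up or down, and all miRNAs had the same spread. The missing miRNAs of *Dnmt*-null replicate 1 were not imitated. These shares therefore do not apply to smaller changes or to uneven replicates.

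The named miRNAs were, outside *Dlk1-Dio3*, the 10 largest rises and falls with an adjusted p under 0.05, those above 1% of counts, the members of each list that passed or else its most abundant member, *let-7b-5p* and *miR-296-3p*, and in the region the 3 largest. Others are named as such. Members and lists were chosen with earlier results of these data known. Alternatives were DESeq2 1.42.0, other scalings and filters, the block, the 8 libraries alone and leaving out each library. Libraries of the other groups, except those named, were not used.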

Additional observations from a re-analysis of the deposited data

Results flagged for a closer look

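In groups of 4 libraries, a library was marked as far from the others where its gap to the nearest was too large a part of the group's range by Dixon's 95% limit, and of 176 groups examined 18 were marked, where chance marks about 1 in 20. *Dnmt*-null replicate 1 was the low one in the number of miRNAs detected at the depth of the smallest library, with 247. On the log2 CPM scale it was also the low one for *miR-142a-5p* (3.06), *miR-15b-5p* (7.29), *miR-182-5p* (14.08), *miR-294-5p* (5.66), *miR-295-3p* (14.03), *miR-295-5p* (11.40), *miR-30c-1-3p* (3.06), *miR-421-3p* (8.04) and *miR-878-5p* (3.06). Elsewhere, the marked libraries were control replicate 1 for *miR-290a-5p* (13.06), control replicate 1 for *miR-290b-3p* (13.06), control replicate 1 for *miR-295-3p* (15.70), *Dnmt*-null replicate 3 for *miR-301b-5p* (5.19), *Dnmt*-null replicate 2 for *miR-34b-3p* (6.78), control replicate 4 for *miR-741-3p* (8.34), control replicate 4 for *miR-743b-3p* (7.09) and control replicate 1 for *miR-881-5p* (3.06). Values at about 3 on this scale are libraries with 0 counts.

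The difference of the log2 fold change between E7.5 Epi and E6.5 Epi had an adjusted p under 0.05 in edgeR for 25 of the 86 named miRNAs. It was positive, a higher *Dnmt*-null over control ratio at E7.5, for *miR-142a-5p* (3.09), *miR-1983* (0.93), *miR-290a-5p* (1.94), *miR-290b-3p* (1.95), *miR-291a-5p* (1.73), *miR-292a-5p* (2.53), *miR-292b-3p* (2.53), *miR-293-3p* (1.43), *miR-294-3p* (2.56), *miR-294-5p* (2.25), *miR-295-3p* (1.94), *miR-295-5p* (2.04), *miR-302b-5p* (1.36), *miR-367-3p* (2.65), *miR-669p-3p* (9.42), *miR-741-3p* (1.72), *miR-880-3p* (1.96) and *miR-99b-5p* (1.28). It was negative for *miR-10b-5p* (-5.55), *miR-199a-3p* (-5.58), *miR-199b-3p* (-5.58), *miR-351-3p* (-4.97), *miR-375-3p* (-4.64), *miR-423-5p* (-1.79) and *miR-540-3p* (-2.96). The value of *miR-669p-3p* rests on libraries with 0 counts and is no measure of size. Depth also differed between the stages, and its part in these differences was not tested.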

How the results depend on the processing

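The number of miRNAs changed was 106 in all and 88 outside *Dlk1-Dio3* (43 higher, 45 lower). With no filter on low counts it was 141 outside the region (59 higher, 82 lower) and 9 of the region were higher. With adjusted p-values it was 53 in all, 42 outside (23 higher, 19 lower), and 11 of the region were higher. The other alternatives moved none of these main counts by more than 1.5 times. DESeq2 gave 129 in all, RLE normalization 106 and TMM without the region 96. Total counts only gave 104, a mean of at least 10 counts 95 and the 8 libraries alone 81. With replicate number as a replicate block, 102 changed in all (34 higher and 52 lower outside the region), and apart from the miRNAs named with it above, it changed no call of those named. A block of replicates 1 and 2 against 3 and 4, chosen after seeing the data, gave 115. Leaving out each library gave 89 to 121 in all and 71 to 100 outside the region (37 to 47 higher, 33 to 56 lower). Scaling moved the median of all tested miRNAs from -0.14 to -0.23 with RLE normalization and to -0.02 with total counts. With TMM without the region, 45 were higher and 32 lower outside it, so the number of falls depended on scaling. Of 70 named miRNAs that passed, 43 kept the call in every alternative in which they were tested, and 46 kept it whichever library was left out. None reversed. The medians of the germline X cluster, *miR-302-367* and *miR-290-295* kept their sign under every scaling. For *miR-290-295*, the 6 members lower with adjusted p became 3 with TMM without the region. They became 4 with total counts only, with the 8 libraries alone and without control replicate 2. Low depth of the *Dnmt*-null libraries limits what can be seen of miRNAs under about 66.3 CPM, the value of 3 counts in replicate 1.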

Other observations

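The remaining calls outside *Dlk1-Dio3* are named here after their values were seen, and each passed with the unadjusted p only unless a value is given. *miR-5119* was higher, with 88.8, 39.5, 39 and 29.5 CPM in controls, 506, 177, 210.3 and 134 CPM in *Dnmt*-null Epi and a log2 fold change of 2.35 (adjusted p = 0.0213, SE 0.67). *miR-3473a*, *miR-3473b* and *miR-3473c*, related entries on different chromosomes, were higher without overlap between the groups, with log2 fold changes of 1.81, 1.89 and 2.36. *miR-5108* was higher without overlap (2.05), and *miR-6538*, *miR-3535*, *miR-504-5p* and *miR-1946a* were higher with overlap (2.78, 1.83, 1.55 and 1.2). Among the falls, *miR-374b-5p*, from the same X-linked site as *miR-421-3p*, went from 1207, 736, 1239 and 1135 CPM to 0, 548, 505 and 363 CPM. *miR-425-5p*, *miR-532-5p*, *miR-872-3p* and *miR-186-5p* were lower without overlap, with log2 fold changes of -1.34, -1.31, -1.19 and -0.75, and the first 3 of these were at 0 in *Dnmt*-null replicate 1. *miR-103-3p* and *miR-339-5p* were lower with overlap (-0.95 and -2.65). *miR-384-3p*, on the X chromosome, had 12, 2, 28 and 22 counts in controls and 0 in all *Dnmt*-null libraries, at least 1.09-fold lower against a floor of 3 counts per library. *miR-7a-1-3p* had 14, 17, 23 and 21 counts in controls and 0, 2, 0 and 0 in *Dnmt*-null libraries, a ratio of control to *Dnmt*-null of 9.75 (95% exact interval 2.61 to 82).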
